A study of Bos indicus and Bos taurus with 17 samples.

Results

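The kynurenine pathway of tryptophan breakdown was followed in milk cells of Kashmiri and Jersey cattle through 10 genes, namely IDO1, TDO2, AFMID, KMO, KYNU, HAAO, QPRT, NAMPT, WARS and AHR. The set was built around KMO, which was chosen by its higher values late in lactation in Jersey cattle, so that the change of KMO over the stages in Jersey is a description of that choice and not a finding. The other members were taken as the remaining steps of the path, the NAD synthesis that follows it, a competing user of tryptophan and the receptor that senses kynurenine. Of the 10 genes, 8 were found among the 21631 distinct names in the table, which has 61264 entries, 25121 of them named. No entry carried the name QPRT or AHR, so these genes have no value here, and nothing follows from this about their expression.

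The milk samples came from Kashmiri cattle, a local breed not improved for milk production, and Jersey cattle, a dairy breed, at D15 (15 days in milk, sampled in March), D90 (July) and D250 (December). The labels name 17 samples, with 3 per breed and day except for Jersey at D90, with 2, from cows in lactation number 2 or 3, and no treatment is given for any group. Season and stage of lactation therefore cannot be told apart. All samples of Kashmiri at D90 and of Jersey at D250 are labelled lactation number 2, and the other groups hold both numbers. Lactation number was thus not balanced over the groups compared, and its part was not tested. The paper instead places all cows in lactation 3. Epithelial cells were captured from the milk with beads that carried an antibody against KRT18, a keratin of epithelial cells, and each value is the authors' single FPKM (sequenced fragments scaled to transcript length and library size) for a breed and day. Where 3 values are given for a breed they stand in the order of the days. With 1 value per group there was no spread between cows, no error and no test here, and a single cow could carry a group value. The paper reports its own tests between these stages and breeds, which are not repeated here. It also gives reads per library, under names that state no breed or day, so the reads behind each group value are unknown.

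The label of the cells was compared with marker genes. The paper made its own check by quantitative PCR at D90, against unsorted milk cells. KRT18 and CSN2 were higher in the captured cells, and LSP1, HBA and CD18, its markers of other cells, were lower. From this the paper proposes that contamination was minimal. The marker levels below are FPKM, another measure, with no unsorted cells beside them. All 14 epithelial markers had at least 1 FPKM in some group, and their levels summed to 5984, 739 and 2670 FPKM in Kashmiri cattle and to 2768, 105 and 1413 FPKM in Jersey cattle. KRT18 itself was at 51.3, 9.13 and 11.5 FPKM in Kashmiri and at 33.7, 1.59 and 4.51 FPKM in Jersey cattle. Markers of white blood cells were present beside them. The 9 of 12 neutrophil markers that were found summed to 175, 484 and 595 FPKM in Kashmiri and to 4744, 5530 and 13709 FPKM in Jersey cattle, with no marker of the list at 0 in all groups. The 12 macrophage markers summed to 118, 528 and 537 FPKM in Kashmiri and to 1098, 2392 and 2777 FPKM in Jersey cattle. The corresponding sums of 10 dendritic cell markers were 51.3, 218 and 97.6 FPKM in Kashmiri and 273, 1037 and 1218 FPKM in Jersey cattle. The myeloid sums were higher in Jersey cattle on every day, although the macrophage and dendritic sums at D250 rested on few genes. Between the breeds on that day, 2 of 11 macrophage markers passed a log2 ratio of 2, with a median log2 ratio of 0.10, and 2 of 9 dendritic markers did, with a median of 1.11. These 2 were BATF3, with 858 FPKM in Jersey, and an entry that joins XCR1 with an unnamed gene, with 196 FPKM, out of the dendritic sum of 1218 FPKM. The 12 markers of T and NK cells summed to 414, 1646 and 415 FPKM in Kashmiri and to 321, 237 and 175 FPKM in Jersey cattle. Their sum was highest in Kashmiri at D90. The part of these cells in the results that follow was not tested, and in such bulk samples fewer cells of a type and less RNA per cell cannot be told apart.

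**Figure D1:**
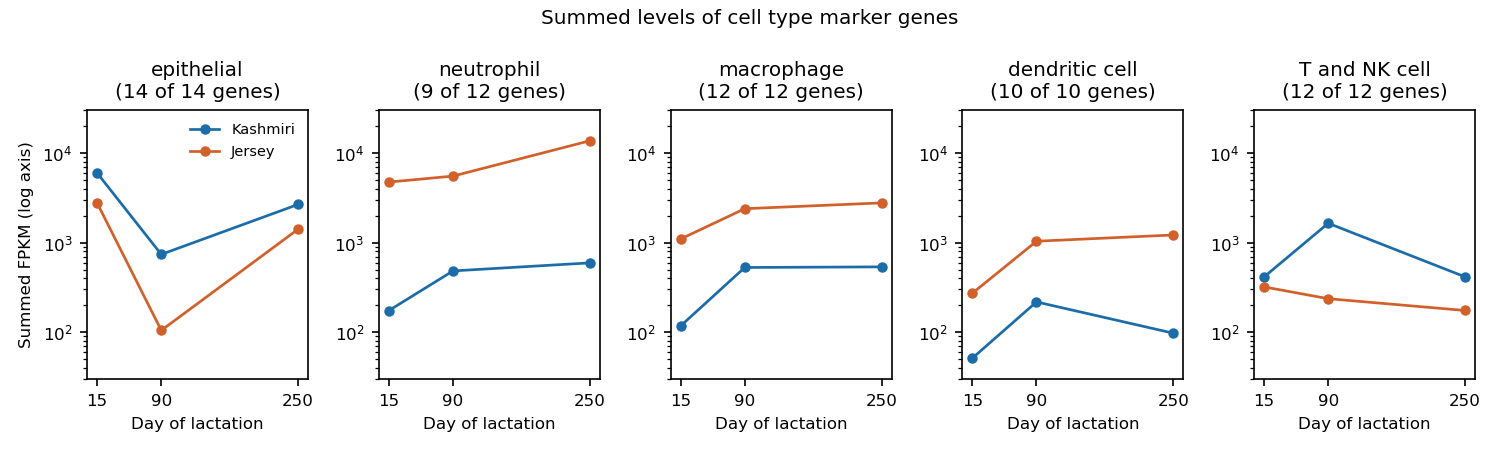
Summed FPKM of the marker genes of 5 cell types (log axis) against the day of lactation, 1 point per breed and day, with Kashmiri in blue and Jersey in orange. The neutrophil sum lies at 4744 FPKM or more in Jersey and at 595 FPKM or less in Kashmiri cattle, and the epithelial sum is lowest at D90 in both breeds.

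Most dietary tryptophan that is not built into protein is broken down along the kynurenine pathway. IDO1, an enzyme that interferon gamma induces in many cells, or TDO2, its counterpart in liver, opens the indole ring, and AFMID releases kynurenine. KMO hydroxylates kynurenine, KYNU cleaves the product, HAAO leads on to quinolinic acid, and QPRT turns that into a precursor of NAD. NAMPT makes NAD by another way, from nicotinamide, WARS loads tryptophan onto its transfer RNA for protein synthesis, and AHR is a transcription factor that binds kynurenine and related compounds. Outside liver and kidney, the path is known best from macrophages and dendritic cells.

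IDO1 was expressed in every group. The Kashmiri values were 31.6, 59.4 and 25.7 FPKM, and those of Jersey were 16.6, 12.8 and 23.7 FPKM. Its highest value was that of Kashmiri at D90 and its lowest that of Jersey at D90, and the values of both breeds lay close together at D250. Jersey had the lower value on each day, with a ratio to Kashmiri of 0.525 at D15, 0.215 at D90 and 0.920 at D250. Over lactation, the plain ratio of D250 to D15 was 0.813 in Kashmiri and 1.43 in Jersey cattle, but the Kashmiri direction turned (log2 ratio with a pseudocount of 1 FPKM from -0.29 to 0.69) when FPKM was rescaled to an equal sum. Among all names, IDO1 stood at percentile 94.7 of its group in Kashmiri at D90 and at percentile 80.5 in Jersey at D90.

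The group with the highest IDO1 value was also that with the highest T and NK sum and the highest level of IFNG, the interferon that induces IDO1. IFNG was at 1.84, 7.60 and 1.35 FPKM in Kashmiri and at 0.510, 0.344 and 0.398 FPKM in Jersey cattle. The link between these values was not tested. TDO2 was listed at 0 in 4 of the 6 groups and had 0.0114 FPKM in Kashmiri at D250 and 0.00808 FPKM in Jersey at D90, so that of IDO1 and TDO2 only IDO1 reached 1 FPKM. IDO2, a relative of IDO1, was carried by 2 entries that ordered the breeds differently. The entry with the higher mean had 2.90, 0.352 and 2.72 FPKM in Kashmiri and 1.16, 0.0531 and 0.569 FPKM in Jersey cattle. The other had 0.111, 0.0720 and 0.0770 FPKM in Kashmiri and 1.10, 0.694 and 0.846 FPKM in Jersey cattle.

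AFMID, the formamidase that releases kynurenine, stayed below 1 FPKM in all 6 groups and entered no comparison. Its Kashmiri values were 0.593, 0.615 and 0.549 FPKM. Its Jersey values were 0.586, 0.301 and 0.195 FPKM, so that D15 was close to the Kashmiri values and D250 was the lowest of all groups.

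KMO, a hydroxylase of the outer mitochondrial membrane, differed most between the groups. It had 0.283, 0.343 and 0.722 FPKM in Kashmiri and 1.21, 24.8 and 97.3 FPKM in Jersey cattle. All Kashmiri values were below the lowest Jersey value. Jersey had 4.27, 72.3 and 135 times the Kashmiri value in the order of the days. These ratios rest on the Jersey values by which KMO was chosen, so their growth over the days is a description and no finding. Within Jersey cattle, which the choice of KMO used, the ratio was 20.5 for D90 to D15 and 3.93 for D250 to D90. Within Kashmiri cattle the ratio of D250 to D15 was 2.55, at levels under 1 FPKM. By rank among all names, KMO stood between percentile 43.6 and percentile 46.3 in the Kashmiri groups, and at percentiles 53.5, 87.4 and 94.6 in Jersey at D15, D90 and D250. The change from D15 to D250 on the log2 scale (pseudocount 1 FPKM) was 5.48 in Jersey and 0.42 in Kashmiri cattle. Their difference of 5.05 is nearly all the Jersey change by which KMO was chosen, so it too is a description and no finding about the breeds.

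Set against the marker sums, KMO did not keep a fixed proportion. For each 1000 FPKM of neutrophil markers, KMO had 0.255, 4.48 and 7.09 FPKM in Jersey cattle. In Kashmiri cattle it had 1.62, 0.709 and 1.21 FPKM on that measure. For each 1000 FPKM of macrophage markers, the Jersey values were 1.10, 10.4 and 35.0 FPKM and the Kashmiri values 2.41, 0.649 and 1.35 FPKM. Thus at D15 KMO was lower in Jersey than in Kashmiri cattle relative to these markers, and at D90 and D250 it was higher. Since KMO was chosen by its change in Jersey, these values too are a description, and the part of cell content was not tested. The macrophage sum in Jersey at D250 (2777 FPKM) holds 909 FPKM from an entry that joins ADGRE1 with VAV1 and an unnamed gene.

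**Figure D2:**
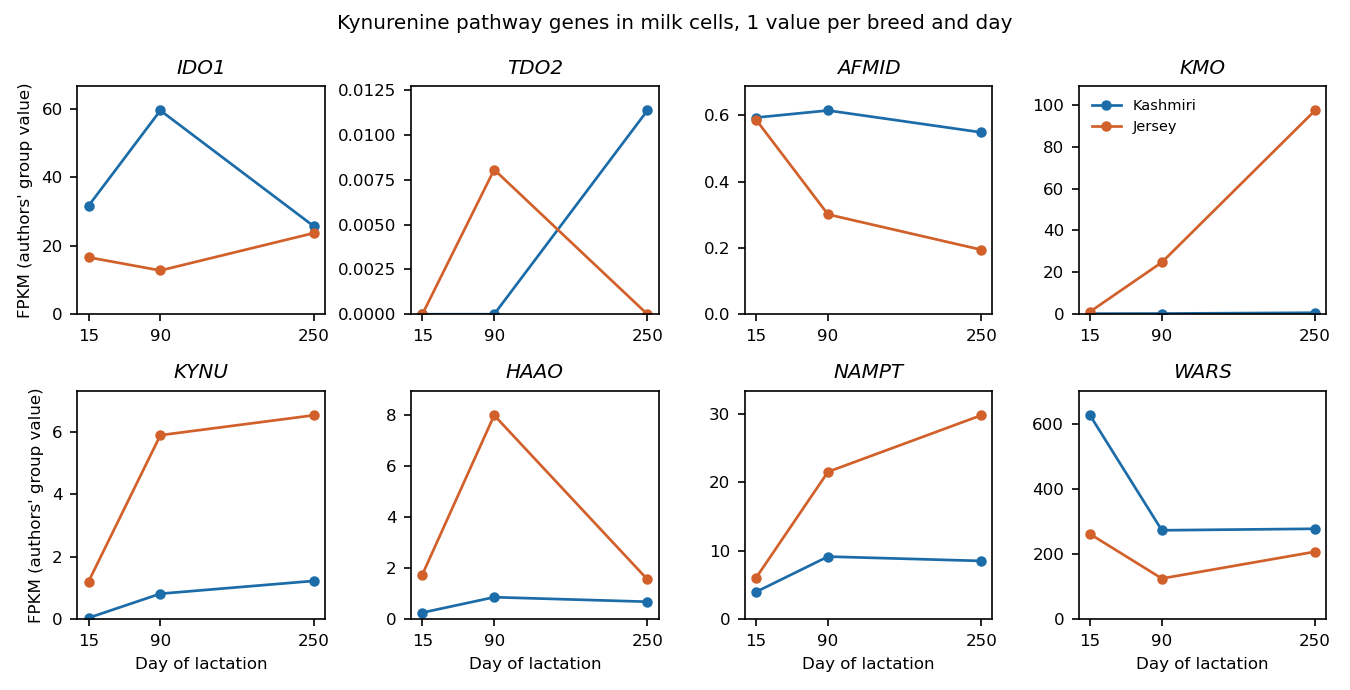
FPKM of the 8 genes found (linear axes from 0, each with its own scale) against the day of lactation, 1 point per breed and day, with Kashmiri in blue and Jersey in orange. KMO reaches 97.3 FPKM in Jersey at D250 and stays at or below 0.722 FPKM in Kashmiri cattle, while IDO1 and WARS are lower in Jersey than in Kashmiri cattle on every day.

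KYNU, the kynureninase that acts after KMO, was also higher in Jersey cattle on each day. It had 0.0383, 0.813 and 1.22 FPKM in Kashmiri and 1.20, 5.89 and 6.53 FPKM in Jersey cattle. The Jersey value at D15 was near the Kashmiri value at D250, and the other Jersey values lay above all Kashmiri values. The Jersey values were 31.4, 7.25 and 5.34 times those of Kashmiri, the first of them over a Kashmiri level near 0. KYNU was higher at D90 than at D15 in both breeds. Between D90 and D250 in Jersey cattle it had a log2 ratio of 0.13, which turned to -0.09 when the groups were scaled to equal upper quartiles and to -0.23 when they were scaled to equal sums. For each 1000 FPKM of macrophage markers, KYNU had 1.09, 2.46 and 2.35 FPKM in Jersey and 0.326, 1.54 and 2.28 FPKM in Kashmiri cattle. For each 1000 FPKM of neutrophil markers it had 0.253, 1.07 and 0.476 FPKM in Jersey and 0.219, 1.68 and 2.06 FPKM in Kashmiri cattle. The order of the breeds at D90 and D250 thus depended on the markers it was set against.

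HAAO, the dioxygenase that yields the precursor of quinolinic acid, had another time course. It had 0.253, 0.858 and 0.680 FPKM in Kashmiri and 1.75, 7.99 and 1.56 FPKM in Jersey cattle. Its value at D90 in Jersey stood apart from the other 5 groups, which were all at 1.75 FPKM or less. From D15 to D90 in Jersey the ratio was 4.58, and from D90 to D250 it was 0.195. Jersey had 6.90 times the Kashmiri value at D15, 9.32 times at D90 and 2.29 times at D250. KMO, KYNU and HAAO thus shared a higher value in Jersey on each day and a higher value at D90 than at D15 in Jersey, and HAAO alone of the 3 was back near its D15 level at D250.

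NAMPT, which recycles nicotinamide into NAD, had 3.98, 9.14 and 8.50 FPKM in Kashmiri and 6.06, 21.5 and 29.8 FPKM in Jersey cattle. The Jersey values at D90 and D250 lay above all others, and the Jersey value at D15 lay within the range of Kashmiri cattle. The ratio of D250 to D15 was 2.13 in Kashmiri and 4.92 in Jersey cattle. Jersey exceeded Kashmiri by ratios of 1.52, 2.36 and 3.50. NAMPT was thus higher in Jersey cattle on each day. The small difference between D90 and D250 in Kashmiri cattle (log2 ratio -0.09) turned to 0.54 with FPKM rescaled to an equal sum. The excess of the Jersey over the Kashmiri change from D15 to D250 was 1.19 on the log2 scale and 0.18 after that rescaling, so the scaling decided its size. For each 1000 FPKM of neutrophil markers, NAMPT had 1.28, 3.89 and 2.17 FPKM in Jersey and 22.8, 18.9 and 14.3 FPKM in Kashmiri cattle.

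WARS, the tryptophan transfer RNA synthetase, had the highest level of the set in every group and a different order of groups. Its values were 625, 272 and 277 FPKM in Kashmiri and 261, 125 and 207 FPKM in Jersey cattle. The value of Kashmiri at D15 stood above the other 5, and that of Jersey at D90 was the lowest. Jersey had 0.417, 0.457 and 0.746 times the Kashmiri level on the 3 days. From D15 to D90 the ratio was 0.436 in Kashmiri and 0.477 in Jersey cattle, a similar size in the 2 breeds. The epithelial sum was lowest at D90 in both breeds as well. For each 1000 FPKM of epithelial markers, WARS had 105, 369 and 104 FPKM in Kashmiri and 94.3, 1188 and 146 FPKM in Jersey cattle.

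The other cytosolic transfer RNA synthetases gave a comparison for WARS. Of 19 genes, 18 were found, and the median log2 ratio of D90 over D15 was -0.72 in Kashmiri and -0.29 in Jersey cattle, beside -1.20 and -1.06 for WARS. Between the breeds (Jersey over Kashmiri) the medians on the 3 days were -0.24, 0.10 and -0.23, beside -1.26, -1.12 and -0.42 for WARS. The median of all named genes tested was -0.13, -0.03 and -0.10 in the same 3 comparisons. Neither SARS nor TARS, the synthetases for serine and threonine, followed WARS. SARS was at 139 FPKM in Kashmiri and 1294 FPKM in Jersey cattle at D250, and TARS at 110 and 712 FPKM. These were 2 of 18 synthetases tested that passed an absolute log2 ratio of 2 between the breeds on that day. This is near the share of all genes (12.3%), so nothing is read from the count. Most of the 18 were highest in Kashmiri at D15, as WARS was. They were AARS, CARS, EPRS, FARSA, FARSB, GARS, HARS, KARS, QARS, RARS and YARS, some of them by a small margin. KARS had 261, 155 and 91.6 FPKM in Kashmiri and 107, 63.0 and 61.3 FPKM in Jersey cattle.

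The sizes of change were read against all named genes with a limit of 2 on the absolute log2 ratio (pseudocount 1 FPKM), for genes with at least 1 FPKM in either group. This count is a ratio of group values and not a test, and each group enters 3 of the 9 comparisons. Of the 8 genes found, 6 reached 1 FPKM in some group, and TDO2 and AFMID did not. In Kashmiri cattle 0 members passed the limit between D15 and D90, beside 7.5% of all genes. Likewise 0 passed between D90 and D250 (1.98% of all genes) and between D15 and D250 (4.05%), where 3 to 4 of the 8 genes were high enough to be counted. In Jersey cattle KMO passed between D15 and D90, with a log2 ratio of 3.54, where 6.76% of all genes passed, and 0 members passed between D90 and D250 (4.18%). In that last comparison KMO, with a log2 ratio of 1.93, and HAAO, with -1.81, were just outside the limit, and HAAO was at -2.14 with FPKM rescaled to an equal sum. Between D15 and D250 in Jersey cattle KMO (log2 ratio 5.48) and NAMPT (log2 ratio 2.12) passed, beside 12.6% of all genes. Since the set was chosen with the KMO values in Jersey known, nothing is read from these counts. NAMPT was just inside the limit and at 1.98 with FPKM rescaled to an equal sum, and KYNU was just outside it with 1.77.

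Between the breeds, 0 members passed at D15, where 8.57% of all genes did. At D90, KMO (log2 ratio 4.26) and HAAO (log2 ratio 2.27) were higher and IDO1 (log2 ratio -2.13) was lower in Jersey cattle past the limit, beside 11.7% of all genes. IDO1 moved to -1.81 with FPKM rescaled to an equal sum, and KYNU was just outside the limit with 1.93. At D250 only KMO passed, with a log2 ratio of 5.83, beside 12.3% of all genes. KMO was chosen by its late Jersey values, so its ratios at D90 and D250 are a description. The next members were KYNU, with a log2 ratio of 1.76, and NAMPT, with 1.70. The pseudocount lowers the ratio of genes near 1 FPKM, and without it KMO, KYNU and HAAO had log2 ratios of 2.09, 4.97 and 2.79 between the breeds at D15.

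**Figure D3:**
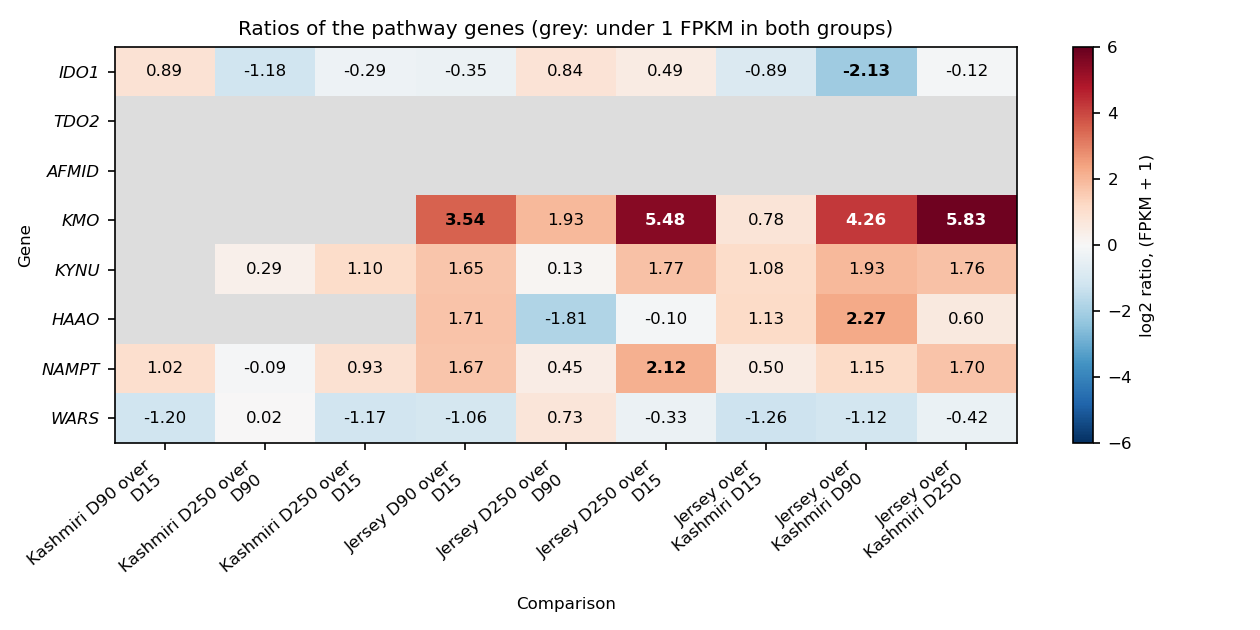
Log2 ratio of FPKM + 1 for the 8 genes (rows) in the 9 comparisons (columns), with red for higher and blue for lower in the group named first, bold for an absolute log2 ratio of at least 2, and grey for genes under 1 FPKM in both groups. KMO has the deepest colour, up to 5.83 between the breeds at D250, and IDO1 at D90 is the blue value past the limit, at -2.13, or -1.81 with FPKM rescaled to an equal sum.

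The genes most like KMO over the 6 groups were sought among 6083 other named genes with a symbol and at least 10 FPKM in some group, by Pearson's r of log2(FPKM + 1). With only 6 points, of which the Jersey groups at D90 and D250 are far from the others, many genes reach a high r. The highest were EPG5, an autophagy gene (r = 0.997), GSAP, which encodes the gamma-secretase activating protein (r = 0.997), PIM1, a serine/threonine kinase induced by cytokines (r = 0.997), GAB3, an adaptor of receptor signalling (r = 0.997), and PELI1, a ubiquitin ligase of Toll-like receptor signalling (r = 0.996). PIM1, for instance, had 62.2, 67.4 and 64.4 FPKM in Kashmiri and 83.5, 353 and 965 FPKM in Jersey cattle. Of the members, NAMPT ranked 485 of the 6083 (r = 0.929), IDO1 ranked 4027 (r = -0.49) and WARS ranked 4814 (r = -0.67). KYNU, which stayed under 10 FPKM and was not ranked, had an r of 0.940, and HAAO had 0.606. KYNU and NAMPT had an r of 0.964 with each other. AFMID, under 1 FPKM throughout, had an r of -0.99 with KMO. KMO, KYNU and NAMPT had their highest value in Jersey at D250 and HAAO in Jersey at D90, whereas IDO1 and AFMID had theirs in Kashmiri at D90, WARS in Kashmiri at D15 and TDO2, near 0, in Kashmiri at D250.

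**Figure D4:**
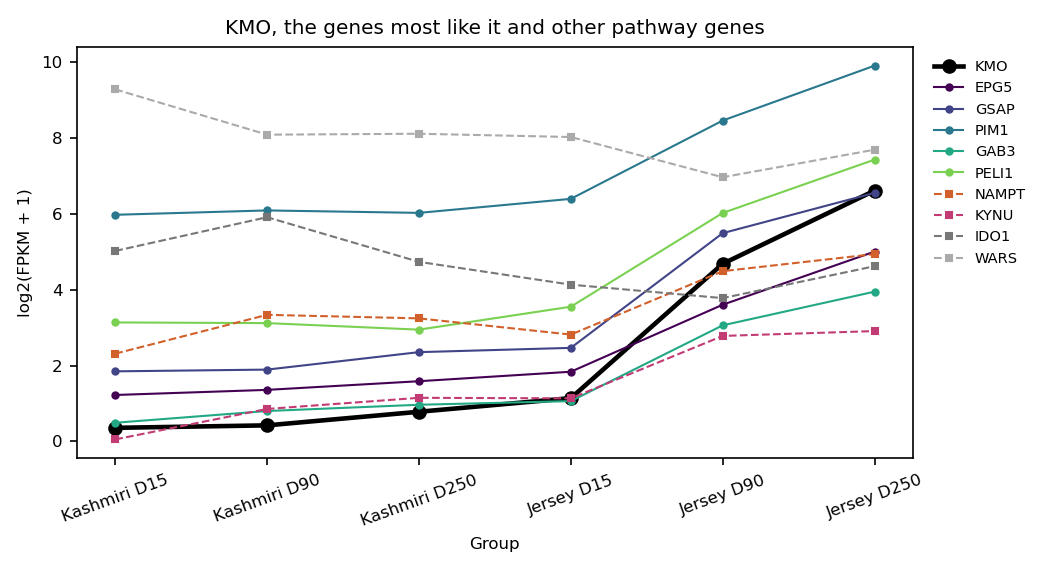
Log2(FPKM + 1) in the 6 groups for KMO (thick black), the 5 genes with the highest r to it (solid lines) and NAMPT, KYNU, IDO1 and WARS (dashed). The solid lines stay nearly flat over the Kashmiri groups and Jersey D15 and are highest at Jersey D250, where KMO is at 97.3 FPKM and PIM1 at 965 FPKM.

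Genes around the pathway were read from 6 lists that hold 93 genes, of which 82 were found. The lists cover the other kynurenine and NAD synthesis enzymes, tryptophan transport, enzymes that use NAD, partners and targets of AHR, the interferon gamma response and the other transfer RNA synthetases. In Jersey cattle between D15 and D250, 11 of 65 entries tested passed the limit of 2, with 10 higher and 1 lower at D250, beside 12.6% of all genes. Between the breeds at D250, 12 of 68 passed, all 12 higher in Jersey, beside 12.3% of all genes. With groups scaled to equal sums these were 8 higher and 2 lower, the latter NAPRT and SLC7A8, and with a pseudocount of 0.1 FPKM they were 12 higher and 3 lower. Of the 12, 7 belonged to the interferon gamma list, 3 to the enzymes that use NAD and 2 to the synthetases. These are descriptions, with no test of a list.

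The remaining enzymes of the kynurenine path and of NAD synthesis showed no course like that of KMO. Of 16 genes, 14 were found, and 11 had at least 1 FPKM at D15 or D250 in Jersey cattle, where 0 passed the limit as higher at D250. Between the breeds at D250, 0 of 13 passed, and the median log2 ratio was -0.66 beside -0.10 for all genes. KYAT3, an aminotransferase that makes kynurenic acid, in an entry that joins it with an unnamed gene, was at 12.4 FPKM in Kashmiri and 27.4 FPKM in Jersey cattle at D250. NAPRT, which makes NAD from nicotinic acid, was at 113, 18.1 and 72.2 FPKM in Kashmiri and 39.3, 5.76 and 22.1 FPKM in Jersey cattle, lowest at D90 in both breeds. NADK, the kinase that turns NAD into NADP, was at 71.5, 65.8 and 64.1 FPKM in Kashmiri and 199, 215 and 200.4 FPKM in Jersey cattle. NAMPT and NAPRT, which start from different forms of niacin, thus had opposite orders of the breeds on each day, with NAMPT higher and NAPRT lower in Jersey cattle.

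Of 14 genes of tryptophan transport and other fates, 11 were found. Of 6 tested, 0 passed the limit in Jersey between D15 and D250 (12.6% of all genes) or between the breeds at D250 (12.3%). At D90, 1 of 6 passed between the breeds, beside 11.7% of all genes. It was MAOA, with 1.47 FPKM in Kashmiri and 21.1 FPKM in Jersey cattle (log2 ratio 3.17). With 6 genes, nothing is read from these counts. SLC7A5, the light chain of the transporter that carries tryptophan into cells, had 92.9 FPKM in Kashmiri at D15 and between 18.3 and 35.2 FPKM in the other 5 groups. Like WARS, it was highest in Kashmiri at D15. The serotonin enzymes TPH1 and TPH2 were below 0.5 FPKM in all groups. IL4I1, a secreted oxidase that also acts on tryptophan, lay between 11.0 and 26.1 FPKM, with both ends of this range in Jersey cattle.

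Among 13 enzymes that use NAD, 2 of 12 passed the limit in Jersey between D15 and D250, beside 12.6% of all genes, and 3 of 12 between the breeds at D250, beside 12.3%. The former share is near that of all genes, and the latter is higher but rests on 3 entries, so nothing is read from either. BST1, an ectoenzyme of myeloid cells that cleaves NAD, had 0.510, 0.764 and 1.29 FPKM in Kashmiri and 9.04, 13.2 and 98.3 FPKM in Jersey cattle. PARP9, of the family that transfers ADP-ribose, was at 6.21 FPKM in Kashmiri and 37.3 FPKM in Jersey cattle at D250. The entry that joins MAFG and SIRT7 was at 17.3 and 109 FPKM. CD38, the best known NAD glycohydrolase of leucocytes, was in contrast highest in Kashmiri at D90, with 28.2 FPKM, as was IDO1.

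For AHR, the receptor itself has no value, and 11 of 14 partners and targets were found. The classical targets CYP1A1, CYP1A2, CYP1B1 and AHRR were below 0.3 FPKM in all groups. TIPARP, another target, which represses the receptor, had 4.91, 7.97 and 25.7 FPKM in Jersey cattle and at most 11.9 FPKM in Kashmiri cattle, and its log2 ratio of 2.18 between D15 and D250 in Jersey was past the limit. The name ARNT, the partner of AHR, occurs only joined with the cathepsin genes CTSK and CTSS, so it has no level of its own.

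The interferon gamma list was looked up because IDO1 and WARS are induced by that cytokine. Of 17 genes, 15 were found, in 14 entries. In Jersey cattle between D15 and D250, 6 of 13 passed the limit and all 6 were higher at D250, beside 12.6% of all genes, with a median log2 ratio of 1.57 beside 0.07 for all genes. At any size of ratio, 9 of these 13 were higher at D250 and 4 lower. The 4 were SOCS1 (log2 ratio -1.59), IRF8 (-1.14), CXCL9 (-0.23) and CIITA (7.15 FPKM at D15 and 2.97 FPKM at D250), none past the limit. The 6 past it were the receptor chains IFNGR1 and IFNGR2 (in an entry joined with SNORA20), the kinases JAK1 and JAK2, and GBP5 and CD274. The list thus counts parts of the signalling path as well as genes that it induces, and a rise of the response was not tested. Between the breeds at D250, 7 of 14 passed and all 7 were higher in Jersey, beside 12.3% of all genes. IFNGR1, IFNGR2 and JAK2 were again among them. With groups scaled to equal sums, 5 passed in the former comparison and 6 in the latter, all of them higher. CD274, the checkpoint ligand PD-L1, had 3.57, 6.88 and 16.2 FPKM in Kashmiri and 29.7, 104 and 333 FPKM in Jersey cattle. IRF1, a transcription factor of the response, had 56.9, 77.2 and 39.4 FPKM in Kashmiri and 159, 387 and 474 FPKM in Jersey cattle. IFNGR1, a chain of the receptor, was at 36.5 and 549 FPKM in the 2 breeds at D250, and JAK2, its kinase, at 5.05 and 85.4 FPKM. IDO1, with 25.7 and 23.7 FPKM, and WARS, with 277 and 207 FPKM, did not share this order of the breeds at D250. Counted at any size of ratio, 9 of the 14 entries had the higher value in Jersey on that day and 5 the lower one. The 5 were the entry that joins the chemokine genes CXCL10 and CXCL11 (log2 ratio -1.05), IFNG itself (-0.75), IRF8 (-0.42), CIITA (-0.16) and CXCL9 (-0.10), none of them past the limit.

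**Figure D5:**
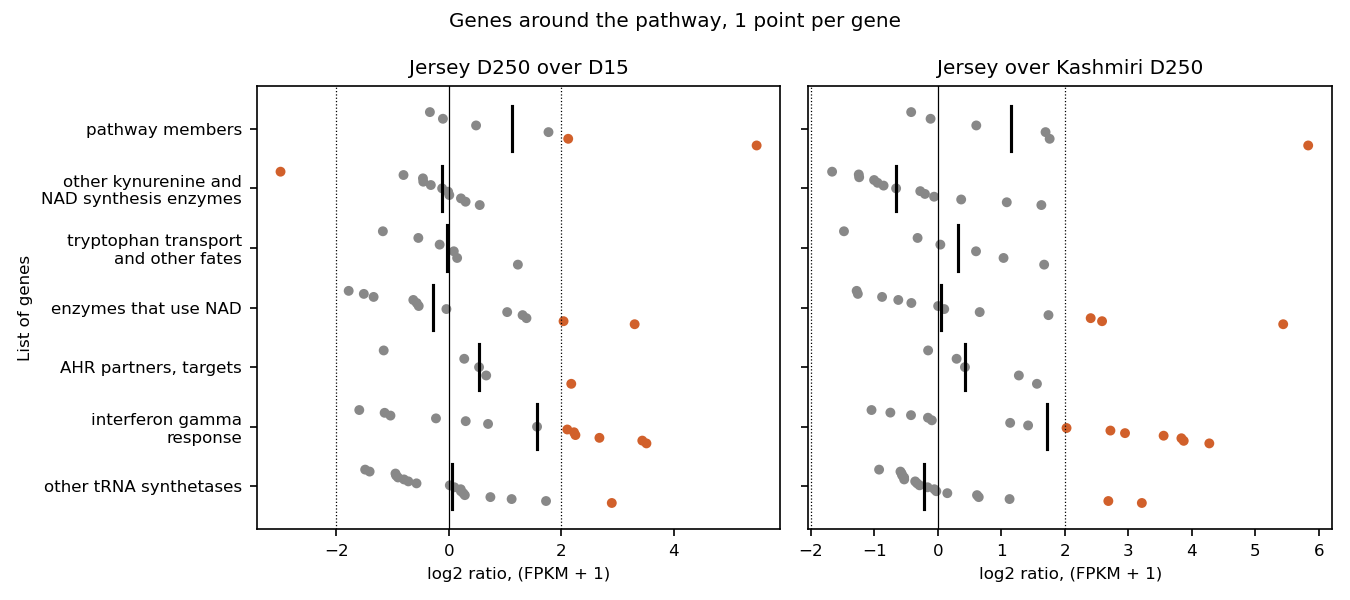
Log2 ratio of FPKM + 1 for each tested entry of the members and of the 6 lists, for D250 over D15 in Jersey cattle (left) and for Jersey over Kashmiri at D250 (right), with 1 point per entry, a black bar at the median, dotted lines at the limit of 2 and orange for entries past it. KMO is the point farthest to the right among the members in both panels, at 5.48 and 5.83, and the interferon gamma list holds 6 and 7 orange points.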

How the data were processed

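Trimming, alignment with TopHat and Bowtie (assembly UMD3.1), assembly with Cufflinks and quantification with Cuffdiff were done by the authors. The deposited values are FPKM, 1 for each gene in each breed and day, from stranded mRNA libraries. The 6 columns were assigned by name, and those headed Local were taken as Kashmiri, the breed other than Jersey. Entries without a name were left out. Where a name was repeated, its highest entry by mean FPKM was taken, and joined names were looked up by each of their parts.

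Log2 ratios used a pseudocount of 1 FPKM, and plain ratios none. A limit of 2 on the absolute log2 ratio and 1 FPKM in either group were used for counts. The genes named in the text are the members, up to 4 genes per list past the limit in either late comparison, and the 5 genes most like KMO. IDO2, KYAT3, NAPRT, NADK, SLC7A5, TPH1, TPH2, IL4I1, CD38, IFNG, CXCL10, CXCL9, CXCL11, IRF8, CIITA, SLC7A8, BATF3, XCR1, ARNT and the AHR targets under the limit were named after their values were seen. So were SOCS1, MAOA, IFNGR2, JAK1, GBP5, the synthetases named as highest in Kashmiri at D15 and the entry that joins ADGRE1 with VAV1. Members and lists were chosen with earlier results of these data known. Another pseudocount, minimum, limit, treatment of repeated names and a pair of scalings were tried. The plain ratio and leaving out joined names were added after seeing the data. The code was tested on simulated data. An entry past the limit is not reported here by name. No sequence and no coordinates were used here. Work was done in Python 3.11.15 with numpy 2.4.6, pandas 2.3.3 and matplotlib 3.10.9.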

Additional observations from a re-analysis of the deposited data

How the results depend on the processing

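No paired analysis was possible because the table holds 1 pooled value per group, and for the same reason no replicate could be left out. The difference between the breeds in the change of KMO from D15 to D250 was 5.05, with values from 4.54 to 5.12 over the alternatives, which is a description, since KMO was chosen by its change in Jersey. With a limit of 1 on the absolute log2 ratio, which is looser by construction, the members past it numbered 2, 1 and 2 in Kashmiri cattle (D15 to D90, D90 to D250, D15 to D250), 5 and 2 in Jersey cattle (D15 to D90, D90 to D250), and 3, 6 and 3 between the breeds at D15, D90 and D250. The shares of all genes at that limit were 33.5%, 17.7% and 25.7%, 29.8% and 20.9%, and 28.9%, 32.9% and 34.5%. With that limit the 6 lists together held 28 of 65 entries past it between D15 and D250 in Jersey (17 higher, 11 lower), beside 42.4% of all genes, and 30 of 68 between the breeds at D250 (22 higher, 8 lower), beside 34.5%. With a pseudocount of 0.1 FPKM, 1 member passed in Kashmiri between D15 and D250, 3 in Jersey between D15 and D90, 1 in Jersey between D90 and D250, and 2 each between the breeds at D15 and D250, beside 9.14%, 12.5%, 8.22%, 14.4% and 17.6% of all genes. With the plain ratio, chosen after seeing the data, these numbers were 1, 3, 1, 3 and 2, beside 9.81%, 13.2%, 8.45%, 15.1% and 18.2%. With groups scaled to equal sums over named genes, without 6 milk protein genes, 1 member passed in Jersey between D90 and D250 and 1 between D15 and D250, beside 3.11% and 12.1% of all genes. Under it, the median log2 ratio over all genes went from -0.04 to 0.81 for D250 over D15 in Kashmiri cattle, from 0.07 to -0.06 in Jersey cattle, and from -0.10 to -0.74 for Jersey over Kashmiri at D250. It changed the sign of 3 of 47 log2 ratios of the members, and the upper quartile that of 1, and in no case that of a ratio past the limit. Summing the entries of a repeated name and a minimum of 0.01 FPKM moved no count of members by over 1.5 times. The paper's reads per library cannot be matched to breed and day, so the depth behind each group value is unknown and values under 1 FPKM carry the least weight.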
